A study of Mus musculus with 6 samples.

Results

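The 5 miRNA genes Mir532, Mir188, Mir362, Mir501 and Mir500 lie together in an intron of the X-linked gene Clcn5, and their counts are described here in mouse embryonic fibroblasts without and with Fbxw7. They were taken by name from a table of 1155 miRNA rows, which held all 5. Small RNA libraries came from cultured embryonic fibroblasts labelled Fbxw7 KO (3 libraries) and from cells labelled WT (3 libraries). The labels give no deleted exon, no Cre driver, no age or sex of the embryos and no passage number, so the knockout is known only by its genotype label. Both groups were grown in DMEM with serum and amino acids, and the labels name no treatment. Fbxw7 itself was not analysed here, so the labels were not checked against it. The labels do not say whether each library stands for its own embryo or culture. The p-values below therefore set the genotype difference against the spread within genotypes of these 6 libraries and no more. Part of that spread may be technical.

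A miRNA hairpin is cut from a longer transcript, and either of its arms can become a mature miRNA that pairs with messenger RNAs mainly through its seed, bases 2 to 8 from the 5′ end. Hairpins that sit close together on a strand can be cut from 1 transcript, after which processing and decay can still set the level of each mature miRNA apart. Clcn5 encodes ClC-5, an endosomal chloride and proton exchanger whose loss causes Dent disease in humans. FBXW7 is the substrate-binding subunit of a ubiquitin ligase that marks Myc, Jun, cyclin E and Notch for degradation. The series compared miRNAs of fibroblasts without and with it.

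All 5 hairpins are on the minus strand of chromosome X (mm10), as is Clcn5, which spans 7153810 to 7319358 in GENCODE M21. In the order of transcription, Mir532 occupies 7248402 to 7248497 and Mir188 occupies 7247989 to 7248056, only 345 bases further on. After 5942 bases follows Mir362 at 7241982 to 7242046, after another 630 bases Mir501 at 7241243 to 7241351, and after 3468 more Mir500 at 7237683 to 7237774. The whole cluster covers 10815 bases of a single intron of 103648 bases, intron 3 of the protein-coding transcript Clcn5-202, with Mir532 68161 bases behind the upstream exon and Mir500 24672 bases ahead of the downstream one. None of the hairpins touches an annotated Clcn5 exon or overlaps another row of the table. Apart from the 5 members, no table row lies within 100 kb of any of them. The Clcn5 transcript itself was not analysed here.

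**Figure D1:**
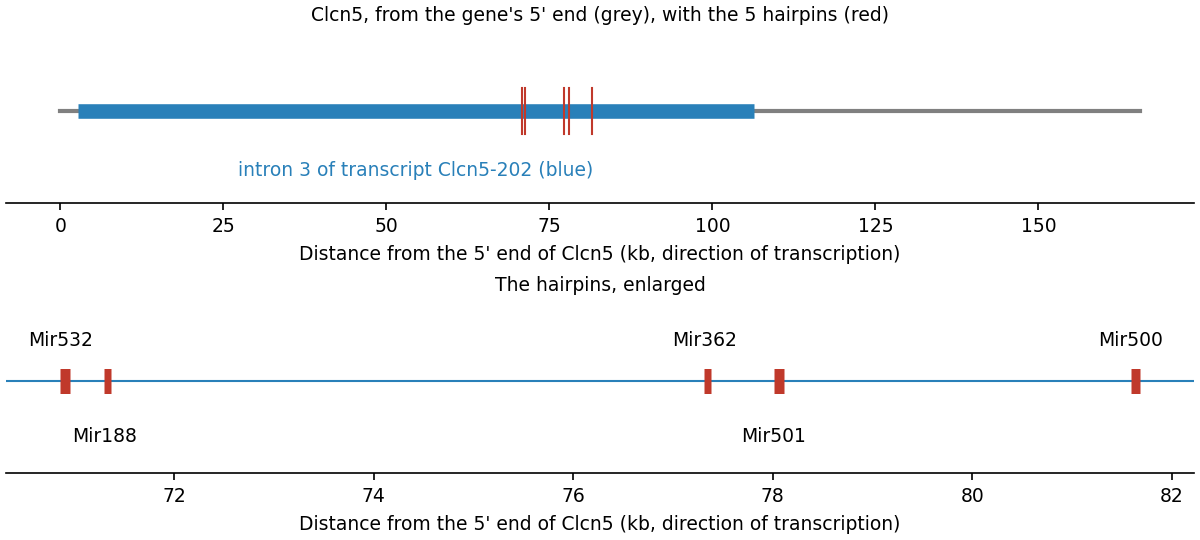
Map of Clcn5 by distance from its 5′ end in kb, in the direction of transcription. The grey line is the gene, the blue bar the intron of 103648 bases and the red marks the 5 hairpins, which the lower panel enlarges. Mir532 and Mir188 form a close pair 345 bases apart, Mir362 and Mir501 another 630 bases apart, and Mir500 stands alone.

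The mature sequences show which of these miRNAs could pair with the same messenger RNAs. All 5 hairpins matched the RefSeq sequences used here (GRCm38.p6). The 9 mature sequences matched are given with the seed in capitals. The sequences used held no entry for miR-532-5p, an arm of the most abundant member. It enters neither the seed counts nor the search for seed relatives.
mmu-miR-532-3p: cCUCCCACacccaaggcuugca
mmu-miR-188-5p: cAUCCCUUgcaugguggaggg
mmu-miR-188-3p: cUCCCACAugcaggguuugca
mmu-miR-362-5p: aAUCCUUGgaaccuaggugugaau
mmu-miR-362-3p: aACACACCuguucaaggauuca
mmu-miR-501-5p: aAUCCUUUgucccugggugaaa
mmu-miR-501-3p: aAUGCACCcgggcaaggauuug
mmu-miR-500-5p: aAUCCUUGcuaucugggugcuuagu
mmu-miR-500-3p: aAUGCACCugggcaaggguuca

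The 9 matched sequences carry 7 different seeds, and 2 of the seeds occur in a pair of members. The miR-501-3p and miR-500-3p arms share the seed AUGCACC, and miR-362-5p and miR-500-5p share AUCCUUG. The miR-501-5p seed AUCCUUU differs from the second of these only in its last base. Over their 22 bases miR-501-3p and miR-500-3p were identical at 18 positions (81.8%), and the 4 differences, counted from the 5′ end with the miR-501-3p base first, were C9U, A18G, U21C and G22A. The Mir188 and Mir532 3′ arms show another likeness. Both hold the run CUCCCACA of 8 bases, at positions 1 to 8 of miR-188-3p and 2 to 9 of miR-532-3p. Their seeds, UCCCACA and CUCCCAC, therefore overlap with an offset of a base but are not the same.

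Over the whole hairpins, the longest identical run between 2 members was 14 bases, between Mir501 and Mir500, and the longest between a member and any hairpin outside the cluster was 12 bases. The hairpin of Mir188, the member with the largest fold difference between the genotypes, has both mature arms in capitals here.
Mir188: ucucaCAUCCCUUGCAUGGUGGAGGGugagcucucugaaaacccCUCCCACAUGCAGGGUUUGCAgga
The deposited table has 1 count for each hairpin, so the 5′ and 3′ arms cannot be told apart in any value below, and neither can the seed groups be counted separately.

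The libraries held 2932439 to 3753353 counts in Fbxw7 KO and 3707576 to 5019700 in WT. Of the 1155 rows, 283 passed the filter on low counts and were tested across all libraries with edgeR's quasi-likelihood test, and 72 of these (25.4%) had an adjusted p under 0.05, 43 higher and 29 lower in Fbxw7 KO. With scaling factors taken from rows outside the Dlk1-Dio3 imprinted cluster, 30 were higher and 34 lower. That scaling put the median over all tested rows at −0.07 in place of 0.05 on the log2 scale. Fibroblast miRNAs were abundant, as the labelled cell type would have them. The 6 of 8 listed that the table holds (Mir21a, Mir143, Mir145a, Mir199b, Mir29a and Mir22) made up 51.1% to 54.6% of counts in Fbxw7 KO and 47.7% to 48.1% in WT, although Mir22 was at 0. Muscle miRNAs held at most 0.0409%, epithelial at most 0.00618%, and blood, neuronal and pluripotent miRNAs at most 0.000438%, while the 2 endothelial rows, Mir126a and Mir126b, were at 0. So were Mir1a-1, Mir1a-2, Mir133a-1 and Mir133a-2 of muscle, Mir142 of blood, Mir124a-1 and Mir9-1 of neurons and 7 of 10 pluripotent rows. Reads with several alignments or over 2 features went uncounted, and miRNAs numbered as copies, such as Mir1a-1 and Mir1a-2, can share reads. The zeros and low shares therefore do not show that these miRNAs were absent. The fibroblast share was higher in each Fbxw7 KO library than in each WT library, and its part in the results below was not tested.

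Together the 5 miRNAs held a steady and small share of the fibroblast miRNA pool. Their summed counts were 5303, 4890 and 6744 in Fbxw7 KO replicates 1 to 3, or 0.169%, 0.167% and 0.180% of all counts. In WT replicates 1 to 3 they were 8843, 8591 and 6289, or 0.176%, 0.188% and 0.170%. The mean share was 0.172% ± 0.00693 in Fbxw7 KO and 0.178% ± 0.00934 in WT (SD, n = 3), and the libraries of the genotypes overlapped. In these bulk cultures, fewer cells that make a miRNA and less of it in each cell cannot be told apart.

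Mir532, the most abundant of the 5, set that total. miR-532 has been reported to target RUNX3 in human gastric cancer cells. Per hairpin length, in the FPKM values the authors deposited, Mir532 averaged 14539 ± 502.1 in Fbxw7 KO and 15411 ± 1393 in WT (SD, n = 3), and in each library it stood 7.84 to 9.41 times above the FPKM of Mir501. It held 81.6% to 83.0% of the cluster counts in Fbxw7 KO and 80.5% to 83.3% in WT. By mean CPM (counts scaled to a common library size by TMM) it ranked 43 of the 283 tested miRNAs.

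Below Mir532 the order of levels per length was Mir501, Mir362, Mir500 and Mir188, with 1 exchange of neighbours. Mir501 averaged 1581 ± 11.7 FPKM in Fbxw7 KO and 1865 ± 181 in WT (SD, n = 3). Mir362 averaged 1373 ± 285 FPKM in Fbxw7 KO and 1039.9 ± 282 in WT. In Fbxw7 KO replicate 3 Mir362, at 1666 FPKM, was above Mir501. The FPKM of this pair did not differ beyond the spread in Fbxw7 KO, whereas in each WT library that of Mir501 was 1.5 to 2.25 times higher. The exchange comes with the division by hairpin length, 65 bases for Mir362 and 109 for Mir501. By CPM, which does not divide by length, Mir501 was above Mir362 in each of the 6 libraries. Mir500, at 292.9 to 385.3 FPKM over the 6 libraries, stayed below Mir362 throughout. Mir188 was the lowest everywhere, with 138 to 218 FPKM in Fbxw7 KO and 251.5 to 319 in WT. In WT its FPKM lay only 1.16 to 1.24 times below that of Mir500. In counts the gap was wider, with log2 ratios of Mir500 to Mir188 of 0.71, 0.74 and 0.66 in WT replicates 1 to 3. The hairpins Mir188 and Mir532 are 345 bases apart, yet their FPKM differed 68.4 to 101-fold in Fbxw7 KO and 47.6 to 65.5-fold in WT.

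Of the 5 miRNAs, 1 passed the test between the genotypes, Mir188, which was lower in Fbxw7 KO. The other 4 did not pass. All 5 had entered the test, of whose rows 25.4% were called and 10.2% called lower, so the share of 1 in 5 is near the background and is no result about the cluster. The median log2 fold change of the 5 was −0.11, against 0.05 over all tested rows.

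**Figure D2:**
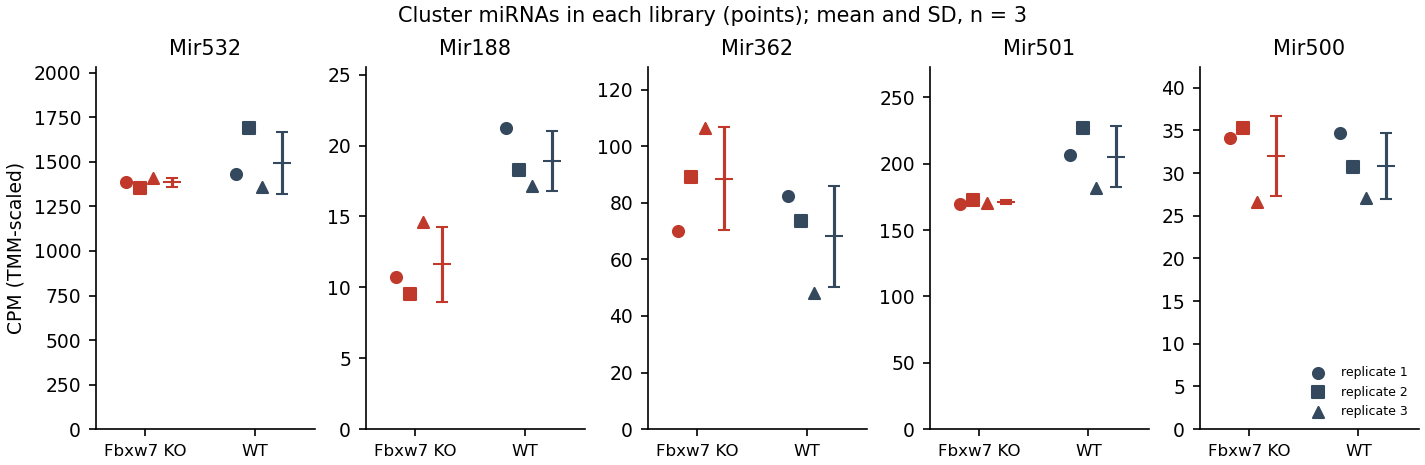
CPM (TMM-scaled) of each miRNA in the 3 Fbxw7 KO and the 3 WT libraries, with linear axes from 0 that differ between panels. Points are libraries, marked by replicate number, and bars give mean and SD. Mir188 and Mir501 libraries did not overlap between the genotypes, while those of Mir532, Mir362 and Mir500 did.

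Mir188 is known in mouse bone marrow stromal cells as a regulator of the choice between bone and fat cell fates. Its level was 10.7, 9.51 and 14.6 CPM in Fbxw7 KO replicates 1 to 3, against 21.3, 18.3 and 17.2 CPM in WT replicates 1 to 3. Every Fbxw7 KO library was below every WT library, with Fbxw7 KO replicate 3 closest to WT. The means were 11.6 ± 2.66 CPM in Fbxw7 KO and 18.9 ± 2.12 CPM in WT (SD, n = 3), which gave −0.69 as the log2 fold change (SE 0.223, adjusted p = 0.0498 in edgeR). In linear terms this was 0.618 times the WT level, with a 95% interval of 0.436 to 0.878.

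The Mir188 call rested on few reads and on the choices of the test. It was the last of the 72 calls in order of p, from 34, 28 and 57 counts in Fbxw7 KO against 106, 77 and 66 in WT, and a count of 28 carries a counting error of 18.9%. The adjusted p passed the threshold under 3 of 15 alternatives, all of them edgeR fits. Neither the DESeq2 test nor any limma fit passed. Over the 15, from edgeR, DESeq2 or limma, the adjusted p ranged from 0.0162 to 0.153, and Mir188 was lower in Fbxw7 KO in all of them. Leaving out Fbxw7 KO replicate 1 (0.153), Fbxw7 KO replicate 2 (0.144), WT replicate 1 (0.145), WT replicate 2 (0.136) or WT replicate 3 (0.0502) ended the call in edgeR, whereas it held without Fbxw7 KO replicate 3 (0.0162).

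Mir501, known in mice from neurons and from muscle progenitors, was the other member whose genotypes did not overlap. It had 170.1, 172.6 and 170.1 CPM in Fbxw7 KO replicates 1 to 3, against 206.9, 227.3 and 181.5 CPM in WT replicates 1 to 3. The 3 Fbxw7 KO libraries lay close together, with an SD of 1.45 CPM, and WT was more spread, with an SD of 23 CPM. The Fbxw7 KO spread was smaller than counting error alone would give (4.44% at the lowest count of 508). The closeness of these 3 libraries is therefore no result about Mir501. The log2 fold change of −0.26 (SE 0.145, 95% interval −0.59 to 0.06) did not pass the test (edgeR adjusted p = 0.217). Non-overlap by itself was common, at 43.8% of the tested rows.

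For Mir532 the libraries of the genotypes overlapped. It had 1388, 1355 and 1410 CPM in Fbxw7 KO replicates 1 to 3 and 1429, 1693 and 1361 CPM in WT replicates 1 to 3. The Fbxw7 KO libraries sat together and WT replicate 2 stood above the rest. Its log2 fold change was −0.11 (SE 0.128, edgeR adjusted p = 0.568), and its 95% interval ran from 0.758 to 1.13 times the WT level. Without WT replicate 2 its log2 fold change was 0.00063.

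Mir362, reported in human gastric cancer cells to target the deubiquitinase CYLD, had the highest value of the 5 in Fbxw7 KO relative to WT. It had 70.04, 89.0 and 106.6 CPM in Fbxw7 KO replicates 1 to 3 and 82.5, 73.7 and 48.1 CPM in WT replicates 1 to 3. The lowest Fbxw7 KO library was below both of the higher WT libraries, and the spread within each genotype was wide. The log2 fold change was 0.38 (SE 0.24, 95% interval −0.17 to 0.92, edgeR adjusted p = 0.274).

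Mir500 shares a seed with Mir501 on the 3′ arm and with Mir362 on the 5′ arm, and its human counterpart was described as an oncofetal miRNA of the liver. It had 34.1, 35.3 and 26.6 CPM in Fbxw7 KO replicates 1 to 3 and 34.7, 30.7 and 27.04 CPM in WT replicates 1 to 3. In both genotypes replicate 3 was the lowest, and the ranges lay on top of each other. The log2 fold change was 0.05 (SE 0.195, 95% interval −0.39 to 0.49, edgeR adjusted p = 0.883), and its sign turned under 4 of 15 alternatives, 1 of them the scaling without Dlk1-Dio3 rows (−0.07).

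**Figure D3:**
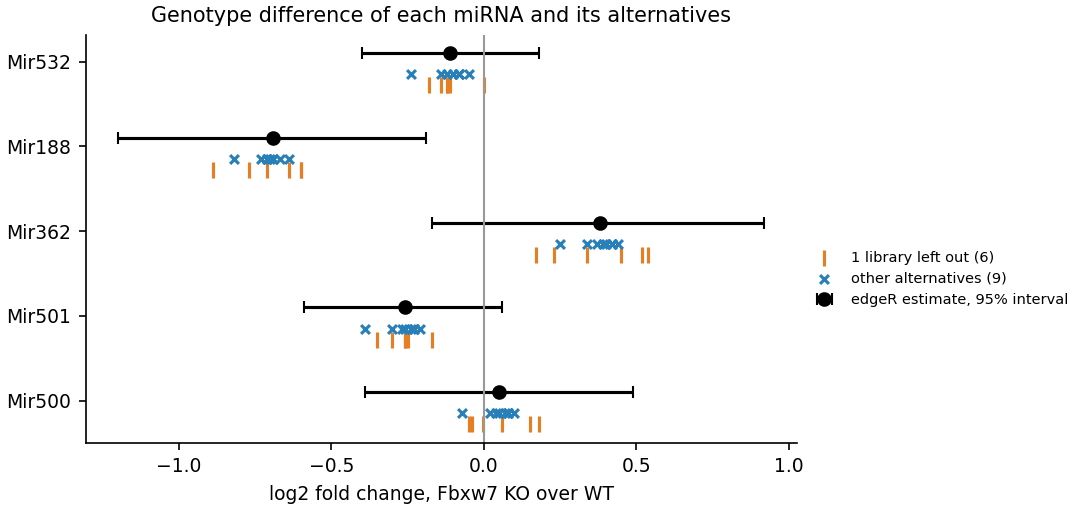
Log2 fold change of each miRNA, Fbxw7 KO over WT. Black points are the edgeR estimates with 95% intervals, orange ticks the estimates with 1 library left out, and blue crosses the other alternatives. Mir188 stays below 0 in all of them (−0.89 to −0.60), Mir362 above 0 (0.17 to 0.54), and Mir500 lies on both sides (−0.07 to 0.18).

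Ratios between the 5 miRNAs within a library do not depend on the scaling of libraries, and they give the make-up of the cluster in each genotype. Mir188 made up 0.641%, 0.573% and 0.845% of the cluster counts in Fbxw7 KO replicates 1 to 3, against 1.2%, 0.896% and 1.05% in WT replicates 1 to 3. The genotypes did not overlap, but the Wilson 95% interval of Fbxw7 KO replicate 3 (0.653% to 1.09%) covered the value of WT replicate 2, so that gap is within counting error. Mir501 held 10.1% ± 0.273 in Fbxw7 KO and 11.3% ± 0.315 in WT, again without overlap. Here too the Wilson 95% interval of Fbxw7 KO replicate 2 (9.56% to 11.3%) covered the values of WT replicates 2 and 3 (11.1% each). Mir362 held 5.24% ± 0.997 in Fbxw7 KO and 3.73% ± 0.86 in WT, and Mir500 1.90% ± 0.315 in Fbxw7 KO and 1.70% ± 0.232 in WT, both with overlap (SD, n = 3 each). Intervals cover counting error only, since reads without molecular identifiers are not independent molecules.

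**Figure D4:**
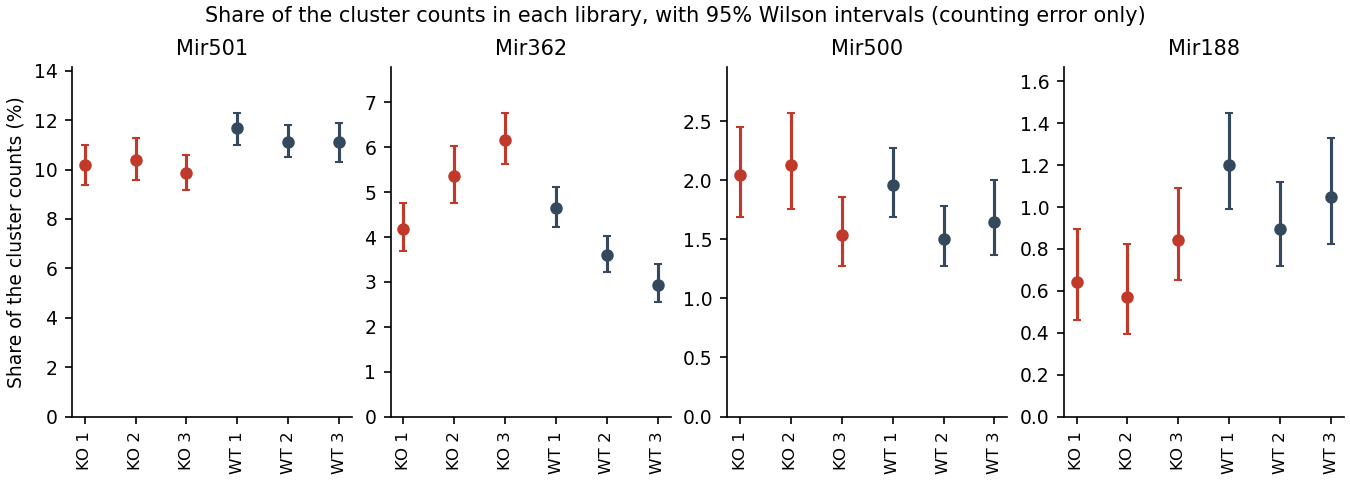
Share of the summed counts of the 5 miRNAs that Mir501, Mir362, Mir500 and Mir188 held in each library, in percent, with Wilson 95% intervals. Axes start at 0 and differ between panels. For Mir501 and Mir188 the 3 Fbxw7 KO points are below the 3 WT points, and for Mir362 and Mir500 the genotypes overlap.

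Of the ratios between members, that of Mir362 to Mir188 had the largest mean difference between the genotypes. The log2 ratio of Mir362 to Mir188 counts was 2.71, 3.23 and 2.87 in Fbxw7 KO replicates 1 to 3, against 1.96, 2.01 and 1.49 in WT replicates 1 to 3. The Fbxw7 KO mean minus the WT mean was 1.12, with SDs of 0.27 in Fbxw7 KO and 0.29 in WT. Between the neighbours Mir362 and Mir501, which lie 630 bases apart, the log2 ratio of Mir501 to Mir362 was 1.28, 0.96 and 0.67 in Fbxw7 KO, just below the 1.33, 1.62 and 1.92 of WT. The log2 ratio of Mir188 to Mir532, the other close pair, was −7.02, −7.15 and −6.59 in Fbxw7 KO, against −6.07, −6.53 and −6.31 in WT. Of the 10 ratios among the 5 miRNAs, 5 did not overlap between the genotypes, beside 43.8% of single tested rows by CPM, and the ratios share members. The ratios are given as a description and were not tested.

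Within a genotype the 5 miRNAs did not vary alike. The SD of log2(CPM + 1) within genotypes was 0.115 for Mir501 and 0.118 for Mir532, places 35 and 37 of 283 from the steadiest. It was 0.196 for Mir500, 0.234 for Mir188 and 0.356 for Mir362, which stood at place 216. Counting error at the lowest count was 1.58% for Mir532 and 4.44% for Mir501. It was 9.81% for Mir500, 18.9% for Mir188 and 7.35% for Mir362, and its part in these spreads was not tested. For each of the 5 the lowest WT library was replicate 3, at 1361 CPM for Mir532, 17.2 for Mir188, 48.1 for Mir362, 181.5 for Mir501 and 27.04 for Mir500. Fbxw7 KO replicate 3 had the highest Mir532, Mir188 and Mir362 and the lowest Mir500 of its genotype. As a description over the 6 libraries, which share scaling factors and genotype, the Pearson r of log2(CPM + 1) was 0.85 between Mir532 and Mir501 but 0.06 between Mir532 and Mir362 and −0.06 between Mir532 and Mir500.

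Outside the cluster, the tested miRNAs whose levels ran most like each member over the 6 libraries differed from member to member. For Mir532 they were Mir539, Mir5114 and Mir192 (Pearson r 0.859, 0.857 and 0.822), and for Mir501 they were Mirlet7f-2, Mir340 and Mir539 (0.972, 0.956 and 0.936). Mir188 ran closest to Mir196a-2, Mir32 and Mirlet7a-2 (0.966, 0.945 and 0.935), which were also called lower in Fbxw7 KO (edgeR adjusted p = 0.00275, 0.0207 and 0.0419). For Mir362 they were Mir103-2, Mir30b and Mirlet7g (0.965, 0.959 and 0.957), and for Mir500 they were Mir103-1, Mir499 and Mir7680 (0.94, 0.934 and 0.926), which each averaged under 6 CPM in both genotypes. Mir539 was named for both Mir532 and Mir501. All these rows were picked for the highest r among the tested rows over only 6 libraries, so high values are in part due to that choice. The r was taken across both genotypes, so rows picked for likeness to Mir188 tend to share its lower level in Fbxw7 KO. The calls of Mir196a-2, Mir32 and Mirlet7a-2 are therefore no separate result. Mir103-1, Mir103-2, Mirlet7a-2, Mirlet7f-2 and Mir196a-2 have near-identical copies elsewhere, so their counts are uncertain.

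The chromosome X list sets the cluster beside other miRNAs of its chromosome. Of the 84 other rows there, 24 could be tested and 34 were at 0 in all 6 libraries. Among the 24, 3 rose, 1 fell and 20 did not pass (edgeR adjusted p under 0.05), with a median log2 fold change of 0.11, beside 15.2% higher and 10.2% lower and a median of 0.05 over all tested rows. Mir672, in an intron of Nexmif, averaged 307 ± 40.4 CPM in Fbxw7 KO and 24.5 ± 10.2 CPM in WT (log2 fold change 3.64, edgeR adjusted p = 0.000227). Mir676 averaged 320.5 ± 7.94 CPM in Fbxw7 KO and 194 ± 36.8 CPM in WT (0.72, edgeR adjusted p = 0.0161). Leaving out Fbxw7 KO replicate 2 ended that call (0.0522).

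The remaining X-linked calls, like that of Mir188, were lost when single libraries were left out. Mir1298 had 17, 24 and 12 counts in Fbxw7 KO replicates 1 to 3, against 7, 10 and 7 in WT replicates 1 to 3 (log2 fold change 1.53, edgeR adjusted p = 0.033). Of 15 alternatives 8 ended this call, with adjusted p up to 0.137, and they included each leave-out except that of Fbxw7 KO replicate 3. Mir224, in another X-linked intronic cluster, averaged 202.9 ± 15.5 CPM in Fbxw7 KO and 278.8 ± 27.3 CPM in WT (−0.46, adjusted p = 0.0466). That call ended under 12 of 15 alternatives, each of the 6 leave-outs included (adjusted p up to 0.229). The most abundant X-linked miRNAs did not pass, namely Mir221 (−0.44, adjusted p = 0.146, but 0.0108 if Fbxw7 KO replicate 3 is left out), Mir322 (0.27, adjusted p = 0.568), Mir98 (0.07, adjusted p = 0.725) and Mir652 (0.33, adjusted p = 0.212).

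**Figure D5:**
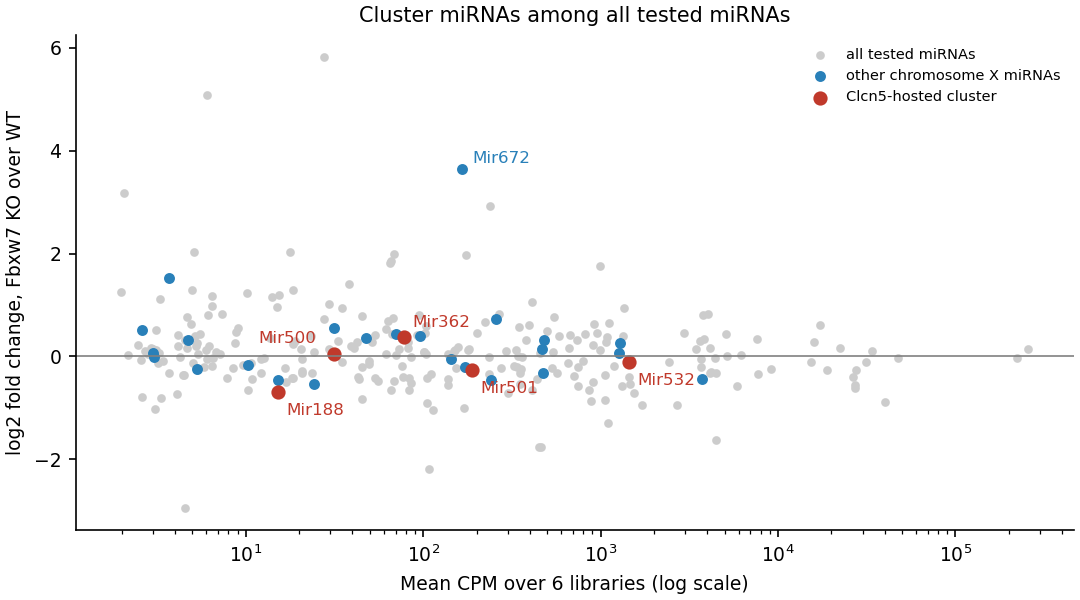
Log2 fold change (Fbxw7 KO over WT) of the 283 tested miRNAs against their mean CPM on a log axis. Grey points are all tested miRNAs, blue the 24 other tested rows of chromosome X and red the 5 miRNAs of the Clcn5-hosted cluster, which lie between −0.69 and 0.38, with Mir672 at 3.64 for comparison.

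For the 7 seeds searched, 2 rows of the table outside the cluster were found with the same seed. RefSeq hairpins of the same symbol were at hand for 926 of the 1155 rows, so further relatives may have been missed. In RefSeq the miR-362-3p seed ACACACC was shared by miR-329-3p, from the Dlk1-Dio3 cluster on chromosome 12, and the miR-188-5p seed AUCCCUU by miR-7061-3p, from chromosome 7. Mir329 had 798, 837.5 and 622 CPM in Fbxw7 KO replicates 1 to 3, against 1106, 1104 and 991 CPM in WT replicates 1 to 3. All 3 Fbxw7 KO libraries were below all 3 WT libraries. Its log2 fold change was −0.50 (SE 0.142, edgeR adjusted p = 0.033), beside 0.38 for Mir362. The Mir329 call ended under 7 of 15 alternatives, among them leaving out Fbxw7 KO replicate 1 (0.0712) or 2 (0.0586) or WT replicate 1 (0.092) or 2 (0.123). Mir7061 had 4, 0 and 0 counts in Fbxw7 KO and 1, 1 and 0 in WT, too few to test.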

How the data were processed

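Read counts per miRNA gene name were made by the authors with featureCounts 1.6.4, per the file headers, with strand ignored and rows summed by gene name. Reads with several alignments or over 2 features go uncounted by default, and the recorded command keeps that default. The FPKM values were deposited by the authors and equal the counts divided by row length and a scaled library total. The build mm10 and the tools TopHat2 2.1.1, SAMtools 1.5, Cufflinks 2.2.1 and deepTools are named in the submitters' processing notes; trimming is not given in the sources used here.

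The main test on counts was edgeR 4.0.16 under R 4.3.3 (TMM factors, filterByExpr with minimum count 10 and minimum total 15, robust glmQLFit, glmQLFTest, 2-sided, genotype as the only term) over all 283 tested rows, with Benjamini-Hochberg adjustment and a threshold of 0.05. SEs come from the F statistic. CPM use TMM-scaled totals. The fit was tested on simulated data. Replicates of a genotype differed by far more than counting noise, which does not show that they are separate embryos or cultures. Each library was entered as 1 sample. Alternatives used DESeq2 1.42.0, limma 3.58.1 on log2 FPKM, other scalings and filters, a replicate block and leaving out each library. Named beside the 5 members are the rows of chromosome X (the called ones and the 4 most abundant), seed relatives and, for each member, the 3 rows most alike. The members and lists were chosen with earlier results of these data known. Positions are those of the count table, and hosts come from GENCODE M21.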

Additional observations from a re-analysis of the deposited data

How the results depend on the processing

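The count of changed miRNAs, 72, was 34 to 78 when 1 library was left out and 48 to 76 under the other alternatives. The Mir188 log2 fold change stayed negative throughout and was −0.89 to −0.60 when 1 library was left out. Its call ended with library totals and no TMM factors (−0.64, adjusted p = 0.0846), the DESeq2 Wald test (−0.71, 0.108), no filter on low counts (−0.67, 0.104), limma on log2(FPKM + 1) (−0.69, 0.0613), limma on log2(FPKM + 0.1) (−0.70, 0.0571) and limma with no filter (−0.69, 0.125). The cause was not tested, other than that fits with no filter adjust over 671 rows in place of 283. Mir532 turned to 0.00063 without WT replicate 2, and over the leave-outs ranged from −0.18 to 0.00063. Mir500 turned to −0.07 with TMM factors from rows outside the Dlk1-Dio3 cluster, and ranged from −0.05 to 0.18 over the leave-outs (−0.0013 when Fbxw7 KO replicate 1 is left out, −0.05 for Fbxw7 KO replicate 2 and −0.04 for WT replicate 3). Mir322 ranged from −0.06 (without WT replicate 3) to 0.46 over the leave-outs, and Mir98 from −0.03 (without Fbxw7 KO replicate 3) to 0.13, with −0.06 under that scaling. Mir362 and Mir501 kept their sign and did not pass in any of the 15 alternatives. Over the leave-outs, the Fbxw7 KO minus WT difference in share of the cluster counts kept its sign for Mir188 (−0.441 to −0.287 percentage points), Mir501 (−1.29 to −0.981), Mir362 (1.04 to 2.03) and Mir500 (0.0855 to 0.378), and lay on both sides of 0 for Mir532 (−1.02 to 0.339, −0.179 with all libraries). The replicate numbers are not known to pair the libraries. Deviations of same-numbered libraries correlated at −0.057, 0.136 and 0.157 for replicates 1 to 3. Fbxw7 KO replicate 1 correlated best with WT replicate 2 (0.152), whereas Fbxw7 KO replicates 2 and 3 each correlated best with the WT library of their own number. These values do not settle whether the libraries are paired. With a replicate block, 76 miRNAs were called, Mir188 had −0.71 (adjusted p = 0.067), Mir224 −0.46 (0.0506) and Mir221 −0.46 (0.0355). Mir188 had 28 to 106 counts a library, and the part of depth in its call was not tested.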
